A study of Mus musculus with 14 samples.

Results

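Eef1a1, Eef1b2, Eef1g and Eef2 encode translation elongation factors, and their transcripts were followed across every group of a study of cystine and cysteine supply in mouse embryonic fibroblasts (MEFs). The members were chosen by gene symbol, and all 4 genes were found, each as 1 of the 1399 counted transcripts. Polyadenylated RNA was sequenced in 14 libraries, 2 for each of 7 groups, all from MEFs labelled wild type. NT and NT2 were untreated cells. Cys was starved of cysteine, and AA was starved of all amino acids. The Cysteamine group received cysteamine, a drug that clears cystine from lysosomes. CTNS-KD cells were transfected with a short hairpin against CTNS (sh-CTNS), the gene of the lysosomal cystine exporter cystinosin, and CTNS-KD-rescue cells with that hairpin and a CTNS plasmid. No group is labelled as a control hairpin, an empty plasmid or a mock transfection. Against untreated cells, transfection and its hairpin or plasmid therefore cannot be told apart. Doses, starvation times, transfection efficiency and the origin of the MEFs are not given in the labels. From the group names, NT was taken as the control of Cys and AA (the first set, 6 libraries), and NT2 as the control of Cysteamine, CTNS-KD and CTNS-KD-rescue (the second set, 8 libraries). The labels do not state this assignment. Nor do they state that replicates are separate cultures, so every p-value speaks only of the scatter among these libraries, possibly a technical one.

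During elongation, eEF1A (Eef1a1) brings aminoacyl-tRNA to the ribosome while bound to GTP. The eEF1B complex exchanges the GDP left on eEF1A for GTP: eEF1Bα (Eef1b2) is a catalytic subunit and eEF1Bγ (Eef1g) a structural one. eEF2 (Eef2) then moves the ribosome along by one codon, and the kinase eEF2K inhibits it. Messages for elongation factors and ribosomal proteins are known members of the terminal oligopyrimidine (TOP) class: they begin with a C followed by a run of pyrimidines, and mTORC1, a kinase that senses amino acids, controls their translation through LARP1. The present libraries measure the amount of RNA, not its translation.

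The pyrimidine tract is the sequence feature for which these genes are known as a class, so the longest such tract of each member is shown here. A tract was searched for on the transcript strand, starting within the first 100 bases of the annotated transcript, as a C followed by C or T for at least 5 bases in all. The 30 bases around each are given 5′ to 3′ with the tract in capitals, from GENCODE release M21.
Eef1a1: ccttggacgttCTTTTTCgcaacgggtttg
Eef1b2: gttcaactccggCTCCTCagagggcgtttc
Eef1g: actgCTCTCTCCTTTCCTCCTCCCTTgtct
Eef2: acgtcagcggtCTCTTCCgccgcagccgcc
The tract of Eef1g was 22 bases long, and the others were 6 or 7. It began at base 54 of the annotated Eef1a1 transcript, base 56 of Eef1b2, base 87 of Eef1g and base 16 of Eef2. None of the 4 annotated transcripts opened with a tract at its first base, and start sites were not measured here. Such tracts are common: 73.6% of the 1385 named transcripts and 90.4% of the 52 ribosomal protein transcripts had one that started in the same span, and 2.31% and 13.5% opened with one.

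The 60 bases before the RefSeq start of Eef1a1 and Eef2 are also shown (RefSeq, GRCm38.p6, 5′ to 3′ on the gene's strand). The search letters were TATAAA, on the gene's strand only, and a match is in capitals. Of the members, 3 matched the promoter table.
Eef1a1, chr9:78481725-78481784, minus strand: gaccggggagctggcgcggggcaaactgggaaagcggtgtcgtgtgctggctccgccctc
Eef2, chr10:81176571-81176630, plus strand: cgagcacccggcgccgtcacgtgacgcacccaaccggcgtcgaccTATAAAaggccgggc
The letters occurred in the Eef2 window and not in those of Eef1a1 and Eef1b2, while 2.87% of 32851 promoter windows of this length held them. The windows are placed by annotated starts, so letters near another start would be missed. Any bearing of these sequences on the levels was not tested.

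In GENCODE M21 on GRCm38, the counted Eef1a1 transcript lies at chr9:78478449-78481724 on the minus strand with 8 exons and 1794 bases, of which 1386 are coding. That of Eef1b2 lies at chr1:63176825-63180486 with 6 exons and 1939 bases (675 coding). Eef1g is at chr19:8967041-8978479 with 10 exons and 1864 bases (1311 coding), and Eef2 at chr10:81176631-81182498 with 14 exons and 3089 bases (2574 coding), these 3 on the plus strand. Cysteine codons made up 1.30% of the codons of Eef1a1, 1.33% of Eef1b2, 1.37% of Eef1g and 1.98% of Eef2, beside a median of 1.62% over 1375 coding transcripts. Copies of these genes limit the counts. Of all 50-base windows, 59.2% in Eef1a1 and 64.3% in Eef1g also occur in transcripts of other genes (20 genes, 18 of them pseudogenes, and 5 pseudogenes), against 7.86% in Eef2 and 5.98% in Eef1b2. How reads matching several copies were counted is not given in the sources used here, so the values of Eef1a1 and Eef1g are uncertain to that extent.

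Total counts ran from 25697 to 51224 per library in the first set and from 64530 to 165747 in the second. The tables held no value below 1, so a fall to 0 could not be seen. Replicates ranked transcripts with a Spearman's rho of 0.976 in NT2 and 0.556 in NT, across transcripts. A class of 341 transcripts, defined by a high count in NT over NT2 and holding none of the members, took 63.8% and 86.8% of counts in NT, 82.8% and 78.7% in AA, and 37.6% and 57.5% in Cys. It took 9.38% and 9.59% in NT2, 17.4% and 16.3% in Cysteamine, 32.7% and 32.0% in CTNS-KD, and 41.8% and 39.4% in CTNS-KD-rescue. The NT and NT2 counts themselves define the class. Its high share in NT and low share in NT2 are therefore built in, and rises of its members over NT2 are favoured by the choice. Fibroblast markers (14 of 24 measured) summed to 6.61 to 7.01% of counts in NT2, 3.75 to 3.86% in Cysteamine, 1.91 to 1.92% in CTNS-KD, 2.79 to 2.89% in CTNS-KD-rescue, 0.767 to 2.53% in NT, 3.63 to 4.64% in Cys and 1.03 to 1.66% in AA. Of the other cell types' lists, 1 of 12 epithelial markers (Cdh1), 1 of 9 endothelial (Flt1), 1 of 10 muscle (Ttn) and 1 of 9 pancreatic acinar markers (Ctrb1) were measured, all in the class above, and 0 of 11 immune and 0 of 9 neural ones. In bulk RNA, fewer cells of a type and less RNA per cell cannot be told apart. Ctns itself was not analysed here, so the hairpin and plasmid labels were not checked against their target.

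Eef1a1 was the eighth most counted transcript with 9437 counts over all libraries, followed by Eef2 with 5799, Eef1g with 3193 and Eef1b2 with 808. Levels below are CPM, counts scaled to a common library total and corrected by TMM (trimmed mean of M values). Per kilobase of transcript in NT2, Eef1a1 stood at 4108 ± 117 CPM (SD, n = 2), Eef1g at 1191 ± 49.7, Eef2 at 1154 ± 55.9 and Eef1b2 at 286 ± 34.1. On this scale Eef1g and Eef2 did not differ beyond their spread, but per coding kilobase Eef1g (1693 ± 70.7) stood above Eef2 (1385 ± 67.1). The counted transcript of Eef1b2, the catalytic exchange subunit, was the least abundant on both scales. The annotation lists 9 transcripts of Eef1b2, 8 of Eef1a1, 6 of Eef1g and 3 of Eef2, and only 1 of each gene was counted. Levels of the other transcripts are not known here, so this order is one of counted transcripts and may not hold for the genes. The changes given below have the same limit.

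**Figure D1:**
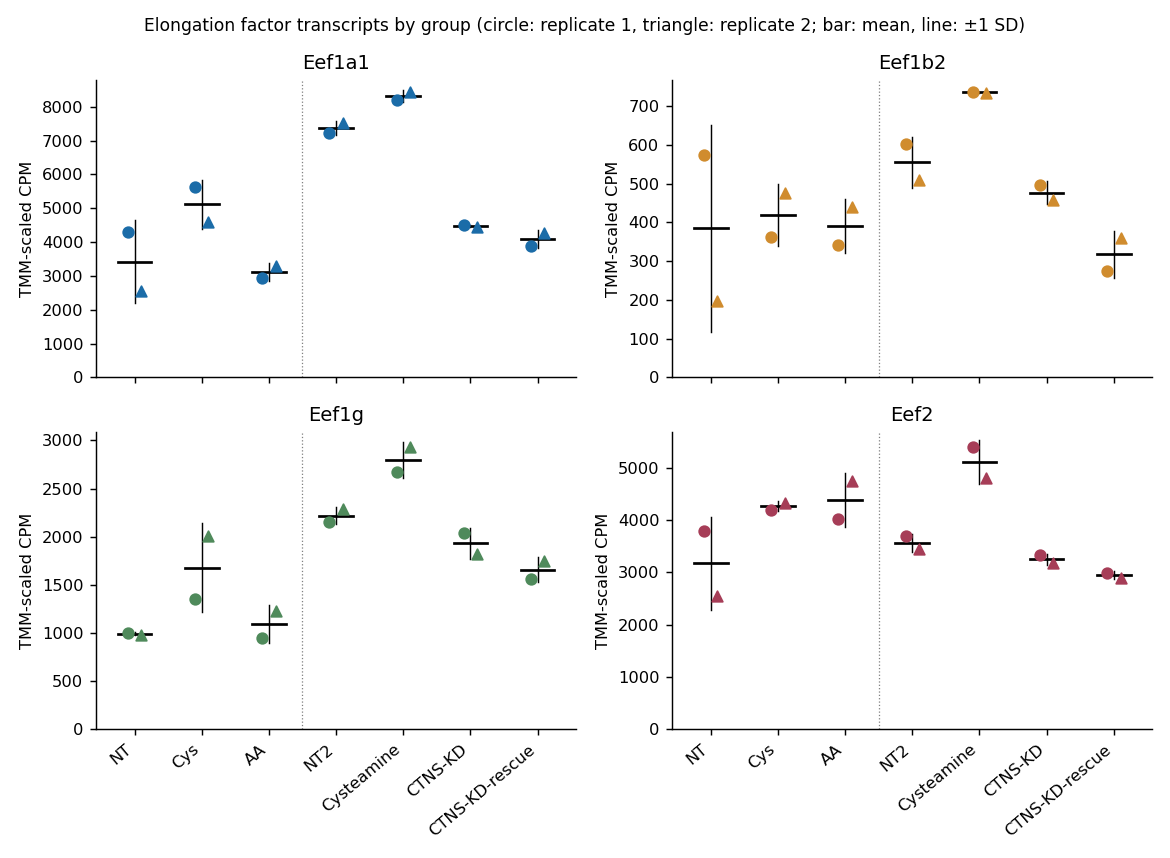
TMM-scaled CPM of each elongation factor transcript (vertical axis, from 0) in the 7 groups (horizontal axis), with a circle for replicate 1, a triangle for replicate 2, a bar for the mean and a line for ±1 SD. Cysteamine is the highest group in all 4 panels, and the NT libraries lie far apart for Eef1a1 (4298 and 2547), Eef1b2 (573 and 196) and Eef2 (3796 and 2547).

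For Eef1a1, the tRNA carrier, the libraries gave 8198 and 8433 CPM in Cysteamine, 7222 and 7518 in NT2, 5628 and 4606 in Cys, and 4489 and 4448 in CTNS-KD. The lower groups were CTNS-KD-rescue with 3896 and 4273, NT with 4298 and 2547, and AA with 2926 and 3297. Every group in this order stood clear of the next down to CTNS-KD-rescue, which overlapped NT, and NT overlapped AA. The translocase Eef2 had another order. Its libraries held 5401 and 4808 CPM in Cysteamine, 4015 and 4748 in AA, 4192 and 4331 in Cys, 3686 and 3442 in NT2, 3322 and 3178 in CTNS-KD, 3796 and 2547 in NT, and 2995 and 2886 in CTNS-KD-rescue. AA overlapped Cys, and NT overlapped NT2, CTNS-KD and CTNS-KD-rescue. With TMM scaling AA was thus the lowest group for Eef1a1 and the second highest for Eef2 by mean. The order for Eef2 depended on the scaling. As a share of all counts, its mean was 0.216% in AA, below 0.548% in NT2 and 0.432% in Cys.

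The eEF1B subunits, like Eef1a1, were highest in Cysteamine and next in NT2. Eef1g libraries gave 2669 and 2931 CPM in Cysteamine, 2154 and 2285 in NT2, 2041 and 1817 in CTNS-KD, 1353 and 2003 in Cys, 1564 and 1746 in CTNS-KD-rescue, 953 and 1231 in AA, and 1003 and 980 in NT. The neighbours that overlapped were CTNS-KD with Cys, Cys with CTNS-KD-rescue, and AA with NT. For Eef1b2 the values were 737 and 734 CPM in Cysteamine, 602 and 508 in NT2, 497 and 457 in CTNS-KD, 363 and 476 in Cys, 340 and 440 in AA, 573 and 196 in NT, and 275 and 359 in CTNS-KD-rescue. From CTNS-KD downward each group overlapped the next, and NT also overlapped NT2. In NT and AA these Eef1b2 values rest on few reads, 16 and 2 counts in NT and 5 and 10 in AA.

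Together the 4 transcripts held 2.08 and 2.14% of all counts in NT2, 2.35 and 2.35% in Cysteamine, 1.4 and 1.36% in CTNS-KD, and 1.05 and 1.16% in CTNS-KD-rescue. In the first set they held 0.794 and 0.249% in NT, 1.36 and 0.972% in Cys, and 0.393 and 0.492% in AA. The NT library at 0.249% had an exact (Clopper-Pearson) 95% interval of 0.192 to 0.318%, which covers counting error only since reads carried no stated molecular identifiers. Set against the 52 ribosomal protein transcripts of the same library, the range narrowed. There were 25.4 to 28.5 elongation factor counts per 100 ribosomal protein counts in the second set and 28.0 to 36.8 in the first. Within the second set NT2 was highest, at 28.2 and 28.5, and did not overlap Cysteamine (26.2 and 25.6), CTNS-KD (27.2 and 26.6) or CTNS-KD-rescue (25.4 and 26.9). With 2 libraries against 2, an exact two-sided permutation test cannot go below p = 0.333, so these ratios are descriptions.

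The comparison of CTNS-KD-rescue with NT2 asks how cells carrying hairpin and plasmid differed from untreated cells. It was the only one of the 7 group comparisons in which members passed the test over all 14 libraries. Eef1a1 fell by 0.85 on the log2 scale (SE 0.31, edgeR adjusted p = 0.0446), from 7222 and 7518 to 3896 and 4273 CPM. Eef1b2 fell by 0.83 (SE 0.23, edgeR adjusted p = 0.0118), from 602 and 508 to 275 and 359 CPM. The libraries of the groups did not overlap for any of the 4 genes. How many of all transcripts had no overlap was not counted, here or in the comparisons below. Lack of overlap therefore cannot be called particular to the members. Eef1g had a log2 fold change of -0.42 (SE 0.25, edgeR adjusted p = 0.206) and Eef2 of -0.28 (SE 0.28, edgeR adjusted p = 0.493), and neither passed. In this comparison 31.5% of the 1399 transcripts were called and 12.9% were called lower, and 2 of 4 members is to be read against that.

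Both calls moved with 1 library and with the scaling. Eef1a1 did not pass when any 1 of the 4 libraries was left out (edgeR adjusted p = 0.15 to 0.205). Eef1b2 did not pass without NT2 replicate 1 (adjusted p = 0.117) or CTNS-KD-rescue replicate 1 (0.142), and passed without NT2 replicate 2 (0.0288) or CTNS-KD-rescue replicate 2 (0.0272). Scaling to the ribosomal protein transcripts left Eef1a1 at -0.36 and Eef1b2 at -0.34 with neither called, and raised Eef1g to 0.067 and Eef2 to 0.21. The 341-transcript class differed between these groups, and without it Eef1a1 was at -0.65 (adjusted p = 0.00376) and Eef1b2 at -0.64 (adjusted p = 0.0208). Over all 12 alternatives the adjusted p ran from 1.14e-06 to 0.301 for Eef1a1 and from 0.000928 to 0.206 for Eef1b2. A fit over the 8 libraries of the second set alone called all 4 members lower: Eef1a1 at -0.95 ± 0.08 (SE), Eef1b2 at -0.93 ± 0.18, Eef1g at -0.52 ± 0.12 and Eef2 at -0.37 ± 0.10. That fit called 41.3% of all transcripts. Marker genes also differed between these groups in the fit over all 14 libraries: 7 of 14 fibroblast markers were called lower and 1 higher (median log2 fold change -0.67). Of the markers of other cell types Ctrb1 (5.0) and Ttn (2.18) were called higher. Of all 1399 transcripts that fit called 180 lower and 261 higher. The markers' part in the members' values was not tested.

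**Figure D2:**
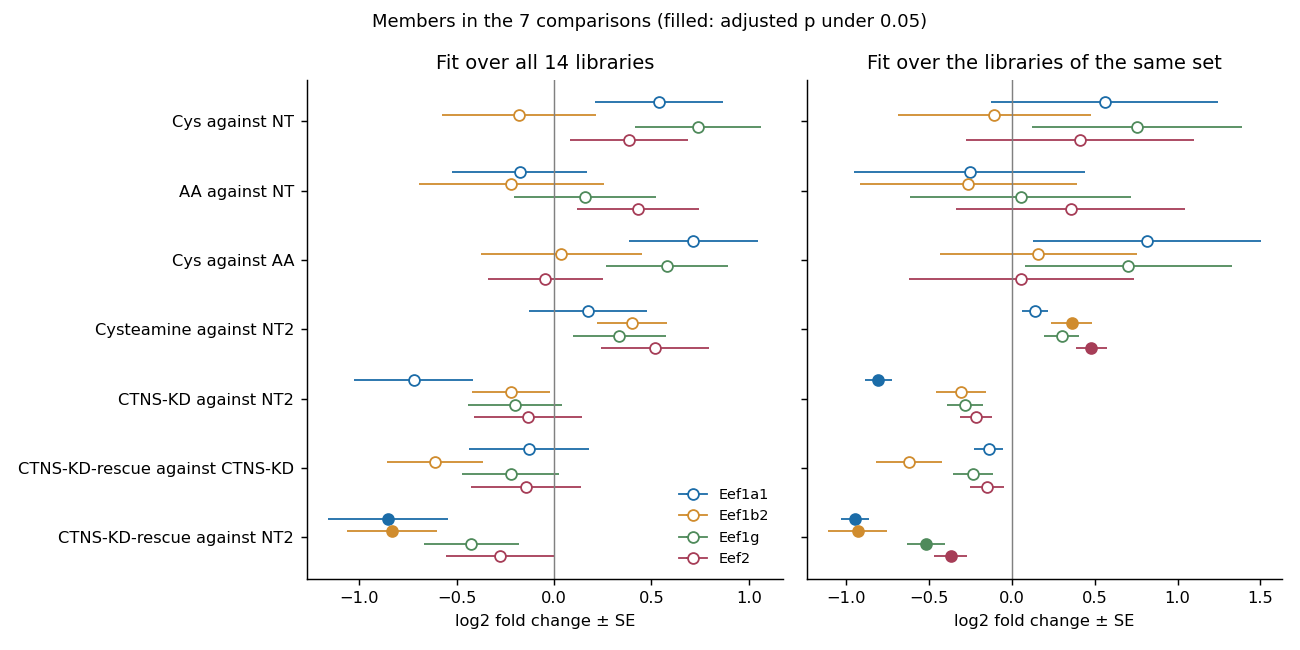
Log2 fold change ± SE (horizontal axis) of the 4 elongation factor transcripts in the 7 comparisons (vertical axis), fitted over all 14 libraries (left) and over the libraries of the same set (right), with filled points where the adjusted p was under 0.05. On the left only Eef1a1 and Eef1b2 in CTNS-KD-rescue against NT2 are filled. The right panel has wider errors for the first set and narrower ones for the second, with 7 filled points.

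CTNS-KD against NT2 compares hairpin-transfected with untreated cells, so hairpin and transfection cannot be told apart. In it Eef1a1 stood at 4489 and 4448 CPM against 7222 and 7518. The groups lay well apart and the replicates close together. Its log2 fold change was -0.72 (SE 0.31), which did not pass over all 14 libraries (edgeR adjusted p = 0.0842), while 30.8% of all transcripts were called. The log2 fold changes of Eef1b2 (-0.22 ± 0.20, SE), Eef1g (-0.20 ± 0.24) and Eef2 (-0.13 ± 0.28) did not pass either. Their libraries did not overlap with NT2, but the share of all transcripts without overlap was not counted. In the fit over the second set alone Eef1a1 was called lower, at -0.81 (SE 0.08, edgeR adjusted p = 4.96e-06), the only member called there, and 40.6% of all transcripts were called. Over the 12 alternatives the value of Eef1a1 lay between -0.90 and -0.36, and its adjusted p between 4.96e-06 and 0.294. Replicates of the first set lay further apart (chi-square per degree of freedom 2.54 to 4.55) than those of the second (1.55 to 1.95), and the fit over all libraries shares one estimate of the spread. In CTNS-KD against NT2, 11 of 14 fibroblast markers were called lower (median log2 fold change -1.58), and Ctrb1 (4.50), Cdh1 (2.49) and Ttn (1.61) were called higher. Of all transcripts 13.2% were called lower and 17.6% higher. What part the marker differences have in the members' values was not tested.

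With TMM scaling, no member lay closer to NT2 in the cells that also received the CTNS plasmid, whereas scaled to ribosomal protein counts Eef1g was at 0.16 in CTNS-KD and 0.067 in CTNS-KD-rescue, both over NT2, and Eef2 at 0.23 and 0.21. In CTNS-KD-rescue against CTNS-KD, the log2 fold changes were -0.13 ± 0.31 (SE) for Eef1a1, -0.14 ± 0.28 for Eef2, -0.22 ± 0.25 for Eef1g and -0.61 ± 0.25 for Eef1b2, and none passed (edgeR adjusted p = 0.375 for Eef1b2). All 4 were lower in both rescue libraries than in both knockdown libraries, and the share of all transcripts that were so was not counted. Eef1b2 went from 497 and 457 to 275 and 359 CPM, on 29 counts in each rescue library. In this comparison 0.643% of all transcripts were called, and 4.15% in the fit over the second set, which also called no member.

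Under cysteamine the direction was the opposite: with TMM scaling all 4 transcripts were higher in both treated libraries than in both NT2 libraries. The share of all transcripts that were so was not counted, and all 52 ribosomal protein transcripts also had a positive log2 fold change. Eef2 was at 5401 and 4808 CPM against 3686 and 3442, a log2 fold change of 0.52 (SE 0.28, edgeR adjusted p = 0.227). Eef1b2 had 0.40 ± 0.18 (SE), Eef1g 0.34 ± 0.24 and Eef1a1 0.17 ± 0.30, the smallest of the 4. None passed over all 14 libraries, where 10.5% of all transcripts were called. Over the second set alone Eef2 (0.48 ± 0.09, edgeR adjusted p = 0.00233) and Eef1b2 (0.36 ± 0.12, adjusted p = 0.0467) were called higher, while Eef1g just missed (adjusted p = 0.0501), and 26.8% of all transcripts were called. Over the 12 alternatives the adjusted p ran from 0.000125 to 0.869 for Eef2 and from 0.0308 to 0.912 for Eef1b2. The direction depended on the scaling: against ribosomal protein counts Eef1a1 was at -0.27, Eef1g at -0.10 and Eef1b2 at -0.037, and Eef2 kept a positive value of 0.080. Of the fibroblast markers 4 of 14 were called lower under Cysteamine (median log2 fold change -0.66), and no marker of another cell type was called. Of all 1399 transcripts 70 were called lower. The markers' part in the members' values was not tested.

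Cysteine starvation was compared with NT to ask how loss of the amino acid itself altered the transcripts. Eef1g was at 1353 and 2003 CPM in Cys against 1003 and 980 in NT, a log2 fold change of 0.74 (SE 0.32, edgeR adjusted p = 0.269). Eef1a1 had 0.54 ± 0.33 (SE) and Eef2 0.39 ± 0.30, also with both Cys libraries above both NT libraries, and Eef1b2 had -0.18 ± 0.40 with overlapping libraries. No member passed, in a comparison where edgeR called 0.00% of all transcripts. At an unadjusted p under 0.05 there were 230 transcripts, and DESeq2 called 60, none of them a member. Scaled to ribosomal protein counts, Eef1a1 was at -0.052 and Eef2 at -0.22. The NT libraries lay far apart, at 4298 and 2547 CPM for Eef1a1, beside 5628 and 4606 in Cys.

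Full amino acid starvation gave no common direction. Against NT the log2 fold changes were 0.43 ± 0.31 (SE) for Eef2, 0.16 ± 0.37 for Eef1g, -0.18 ± 0.35 for Eef1a1 and -0.22 ± 0.47 for Eef1b2. Only for Eef2 did the libraries not overlap (4015 and 4748 CPM against 3796 and 2547). No member passed and 0.00% of all transcripts were called, with 109 at an unadjusted p under 0.05 and 0 called by DESeq2. Cys and AA, which share the NT control, were also compared directly. Eef1a1 was higher in Cys than in AA by 0.71 (SE 0.33, edgeR adjusted p = 0.166) and Eef1g by 0.58 (SE 0.31), with libraries that did not overlap, whereas Eef1b2 was at 0.037 and Eef2 at -0.046. None passed, while 15.0% of all transcripts were called.

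Whether the second set's treatments acted unlike cysteine starvation was tested as a difference of effects. The effect of CTNS-KD over NT2 minus that of Cys over NT was -1.26 (SE 0.45) for Eef1a1, at an edgeR adjusted p of 0.0596, and -0.94 (SE 0.40) for Eef1g, at 0.117. No member passed, with 19.2% of all transcripts called. The value for Eef1a1 passed without NT replicate 1 (-1.73, adjusted p = 0.00653) or Cys replicate 2 (-1.39, adjusted p = 0.0458), and its adjusted p ranged from 0.000194 to 0.606 over 15 alternatives. Cysteamine's effect minus that of Cys was called for no member, with 6.79% of all transcripts called. Each effect is over the control of its own set, and whether the sets differed in more than treatment is not stated in the labels.

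Ribosomal protein transcripts gave the members a reference within the translation machinery. Under Cysteamine all 52 had a positive log2 fold change (median 0.42, 6 called higher, while 5.50% of all transcripts were), beside a median of 0.37 over the 4 members and 0.13 over all transcripts. In CTNS-KD their median was -0.34 with 10 called lower (13.2% of all transcripts were), beside -0.21 over the members, and in CTNS-KD-rescue against NT2 it was -0.52 with 21 called lower (12.9% of all transcripts), beside -0.63. Medians over all transcripts were 0.093 and -0.0056 in these comparisons. The sign of these 3 ribosomal protein medians was the same with median-of-ratios scaling, library totals and the 341-transcript class left out, and near 0 by construction when the libraries were scaled to them. The counts moved more: with library totals 0 were called higher under Cysteamine, 7 lower in CTNS-KD and 26 lower in CTNS-KD-rescue. Of all 1399 transcripts, library totals called 32, 182 and 259 in these directions. Within the second set alone 31, 25 and 33 ribosomal protein transcripts were called, where 16.1%, 20.9% and 21.4% of all transcripts were called in these directions. In Cys against NT their median was 0.53 and in AA against NT 0.20, with 0 called in each. With library totals these medians were 1.21 and -0.18. Within these 52, Eef1a1 lay at the low end in the comparisons with NT2: 1 of 52 was below it under Cysteamine, 9 in CTNS-KD and 8 in CTNS-KD-rescue. Eef2 lay above most of the 52 in these comparisons, with 35, 43 and 36 below it. The low place was not particular to Eef1a1, as Eef1b2 also had 8 below it in CTNS-KD-rescue against NT2. In CTNS-KD-rescue against CTNS-KD, 30 of 52 were below Eef1a1.

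**Figure D3:**
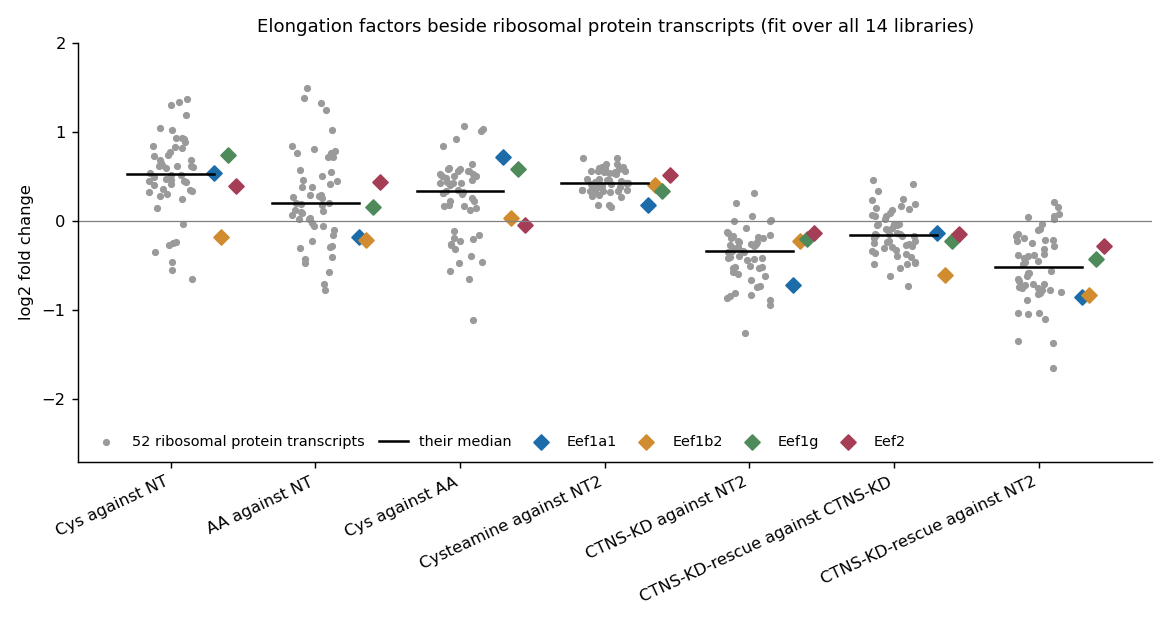
Log2 fold change (vertical axis) of the 52 ribosomal protein transcripts (grey points, black line for their median) and of the 4 elongation factor transcripts (diamonds) in the 7 comparisons (horizontal axis), fitted over all 14 libraries. The ribosomal protein median is 0.42 under Cysteamine and -0.52 in CTNS-KD-rescue against NT2, and the members lie within the range of the grey points in every comparison.

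The ratio of Eef1a1 to Eef2 within a library does not depend on how libraries are scaled to each other. It was 1.96 and 2.18 counts of Eef1a1 per Eef2 count in NT2, the highest values of the 14 libraries. Under Cysteamine it was 1.52 and 1.75, in CTNS-KD 1.35 and 1.4, and in CTNS-KD-rescue 1.30 and 1.48. None of these 3 groups overlapped NT2. In the first set the ratio was 1.13 and 1.0 in NT, 1.34 and 1.06 in Cys, and 0.729 and 0.694 in AA, where Eef2 outnumbered Eef1a1 in both libraries. AA overlapped neither NT nor Cys, which overlapped each other. The untreated groups NT and NT2 did not overlap either, and the 3 treated groups of the second set lay between them. Cysteamine and CTNS-KD thus had lower ratios than NT2 while, with TMM scaling, Eef1a1 and Eef2 both lay above NT2 in the first and below it in the second.

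The parts of this ratio can be read against ribosomal protein counts. Eef1a1 had 14.9 and 15.6 counts per 100 ribosomal protein counts in NT2 against 12.6 and 12.8 in Cysteamine, 11.8 and 12 in CTNS-KD, and 11.4 and 12.4 in CTNS-KD-rescue. Eef2 had 7.60 and 7.14 in NT2, 8.32 and 7.27 in Cysteamine, 8.74 and 8.55 in CTNS-KD, and 8.73 and 8.38 in CTNS-KD-rescue. So relative to ribosomal proteins Eef1a1 was below NT2 in all 3 treated groups, and Eef2 above it in CTNS-KD and CTNS-KD-rescue. Eef1a1 also stood lower against Eef1g, the structural eEF1B subunit. There were 3.35 and 3.29 Eef1a1 counts per Eef1g count in NT2, 3.07 and 2.88 in Cysteamine, 2.2 and 2.45 in CTNS-KD, and 2.49 and 2.45 in CTNS-KD-rescue. The ratio to the catalytic subunit Eef1b2 was not calculated. In CTNS-KD-rescue against NT2, Eef1b2 had a log2 fold change close to that of Eef1a1 (-0.83 and -0.85), so the lower place cannot be extended to Eef1b2. Since Eef1a1 and Eef1g share most of their 50-base windows with other genes, mainly pseudogenes, and Eef2 does not, what part the counting of shared reads has in these ratios was not tested.

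**Figure D4:**
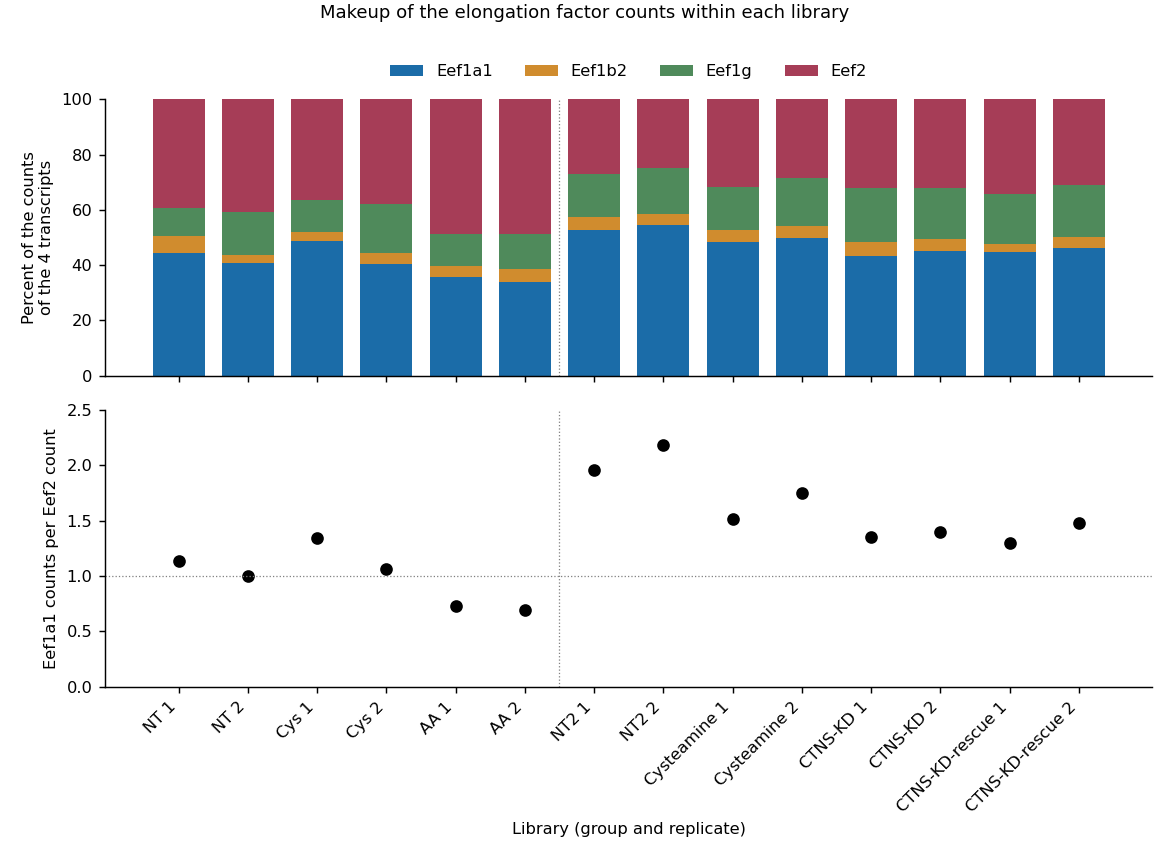
Share of the elongation factor counts that fell on each of the 4 transcripts (upper panel, percent, bars from 0) and Eef1a1 counts per Eef2 count (lower panel) in each of the 14 libraries, with the first set left of the dotted line. The AA libraries lie lowest in the lower panel (0.729 and 0.694) and the NT2 libraries highest (1.96 and 2.18).

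Other genes of elongation, initiation and their control were taken from lists of the pathway. Of 35 elongation genes 7 were measured, and beside the members these were Eif5a, Eef1d and the mitochondrial factor Gfm1. Eif5a, which helps ribosomes through difficult peptide bonds, had a log2 fold change of 0.58 ± 0.19 (SE) under Cysteamine (edgeR adjusted p = 0.0648). Eef1d, the other exchange subunit, had 0.37 ± 0.22 under Cysteamine and 0.0063 ± 0.26 in CTNS-KD-rescue against NT2. Neither was called in any of the 7 comparisons, and Gfm1, which belongs to the 341-transcript class, was called once, lower in Cys than in AA (log2 fold change -2.52). Of 49 initiation genes 13 were measured. Under Cysteamine 4 were called higher (5.50% of all transcripts were) and 0 lower, among them the helicase Eif4a1 (0.67 ± 0.20, edgeR adjusted p = 0.0482) and its cofactor Eif4b (0.59 ± 0.18, adjusted p = 0.0461). In CTNS-KD 3 were called higher, Eif4b among them (0.53 ± 0.18, edgeR adjusted p = 0.0363), and 0 lower, where 17.6% of all transcripts were higher and 13.2% lower. In CTNS-KD-rescue against NT2, 2 were called lower, against 12.9% of all transcripts, one of which was the poly(A)-binding protein Pabpc1 (-0.74 ± 0.23, edgeR adjusted p = 0.0234). With library totals 0 initiation genes were called under Cysteamine, 0 in CTNS-KD and 3 lower in CTNS-KD-rescue, and scaled to ribosomal protein counts 0, 4 higher and 0. Of all 1399 transcripts, library totals called 93 under Cysteamine, 373 in CTNS-KD and 259 lower in CTNS-KD-rescue. Scaling to ribosomal protein counts called 247, 342 higher and 432.

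Among termination genes only Upf1, a helicase of nonsense-mediated decay, was measured, of 7 listed. It rose by 1.08 (SE 0.22, edgeR adjusted p = 0.00222) in CTNS-KD and by 0.94 (SE 0.23, adjusted p = 0.00635) in CTNS-KD-rescue, both against NT2. Upf1 belongs to the 341-transcript class, whose definition favours low counts in NT2. Of 50 genes of mTORC1 and translational control, 7 were measured: Gcn1l1, Larp1, Atf4, Tsc2, Larp4, Fnip2 and Mtor. Atf4, the transcription factor induced when amino acids are short, had a log2 fold change of 1.14 ± 0.37 (SE) in Cys against NT (edgeR adjusted p = 0.123) and 0.021 ± 0.49 in AA against NT. It fell by 0.91 (SE 0.24, edgeR adjusted p = 0.00908) in CTNS-KD-rescue against NT2. Larp1, the TOP message regulator, was called in no comparison (0.59 ± 0.21 under Cysteamine, edgeR adjusted p = 0.0767). Fnip2, a folliculin partner, rose in CTNS-KD (0.89 ± 0.31, edgeR adjusted p = 0.0392) and CTNS-KD-rescue (1.02 ± 0.32, adjusted p = 0.0236), and belongs to the same class as Upf1.

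Valyl-tRNA synthetase (Vars), which binds the eEF1B complex, fell by 0.76 (SE 0.23, edgeR adjusted p = 0.0218) in CTNS-KD against NT2 and had -0.34 ± 0.23 in CTNS-KD-rescue. Of 8 measured synthetases (of 41 listed) 1 was called higher and 1, Vars, lower in CTNS-KD. Rack1, a scaffold on the small ribosomal subunit, fell by 0.81 (SE 0.25, edgeR adjusted p = 0.0218) in CTNS-KD and by 0.75 (SE 0.26, adjusted p = 0.0349) in CTNS-KD-rescue. Rack1 is among the 52 ribosomal protein transcripts, so these calls are already in their counts above. A list of other TOP messages (15 measured of 27) shared Pabpc1, Eif4b, Eif2s3x and Eif3e with the initiation list and Vim with the fibroblast markers. Its calls are thus partly those given above. Of the 15, 4 were called higher under Cysteamine, 2 higher and 2 lower in CTNS-KD, 5 lower in CTNS-KD-rescue against NT2, and 4 higher in Cys against AA. Over all transcripts 5.50%, 17.6% and 13.2%, 12.9%, and 2.57% were called in these directions.

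Across the 14 libraries, log2 CPM of each member was correlated with that of 896 other transcripts with a mean count of at least 20, as a description: libraries share groups and scaling, and the median correlation was itself above 0. Eef1a1 was most like an unnamed transcript (Pearson's r = 0.949), Rpl23a (0.945), S100a6 (0.941), Rpl12 (0.934) and Rpl26 (0.930), against a median of 0.429. For Eef1b2 the list was Rps2 (0.912), Rps6 (0.909), Rplp0 (0.907), Rpl13 (0.898) and S100a6 (0.884), against a median of 0.309. Eef1g was most like Ybx1 (0.964), Rps19 (0.947), Rpl26 (0.922), Rbbp4 (0.917) and Rpl38 (0.914), against 0.399. The list for Eef2 held no ribosomal protein: Lamb1 (0.888), Ubb (0.861), Tsc22d2 (0.826), Phldb2 (0.803) and Ptgis (0.801), against 0.0886. Between the members, r was 0.848 for Eef1a1 with Eef1g, 0.799 for Eef1a1 with Eef1b2, 0.701 for Eef1b2 with Eef2, 0.680 for Eef1b2 with Eef1g, 0.490 for Eef1a1 with Eef2, and 0.324 for Eef1g with Eef2. Over the 8 libraries of the second set alone, all pairs of members lay between 0.839 and 0.943.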

How the data were processed

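RNA was taken up in TRIzol and enriched on oligo(dT) beads, and 50 to 100 nucleotide RNA was cut from a gel, tailed, ligated and amplified, per the labels' protocols. Listed without roles in the submitters' processing notes are the build GRCm39 and the tools STAR 2.7.10a, Bowtie 1.2.3, cutadapt 2.8 and bcl2fastq 2.20.0.422. For the counter, the annotation and the strand setting nothing is given in the sources used here. The authors deposited a table of whole-number counts per transcript for each of the 14 libraries, under a name that says CPM. The same 1399 transcripts stand in every table with a smallest count of 1, so totals are not sequencing depths. Names, lengths and sequences came from GENCODE M21 (GRCm38) for 1385 transcripts, and promoter windows from RefSeq.

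edgeR 4.0.16 (quasi-likelihood test, R 4.3.3) fitted 7 group means over all 14 libraries after TMM scaling, which left 7 residual degrees of freedom. Two-sided p-values were adjusted over all 1399 transcripts (Benjamini-Hochberg), and a transcript was called under 0.05. SE is the log2 fold change divided by the root of the F statistic. CPM for correlations had a prior count of 2. DESeq2 1.42.0, other scalings, a minimum mean count of 20, transcripts left out, fits within a set, a replicate block, other controls and leaving out each library were alternatives. No replicate pair agreed within counting noise (chi-square per degree of freedom 1.55 to 4.55). Named genes were the members, up to 6 measured genes by total count from each list of elongation, initiation, termination and mTORC1 control, Vars, Rack1, and the 5 transcripts most like each member. Gfm1 and Mtor were named outside this rule, as list members. The members and lists were chosen with earlier results of these data known.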

Additional observations from a re-analysis of the deposited data

How the results depend on the processing

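Of 472 member values under the alternatives, 399 kept their sign and side of the threshold, 20 passed it newly, 9 lost it and 44 changed sign, of which 1 was called under its alternative (Eef1g in AA with NT2 as the control) and none with the settings of the report. Scaling to ribosomal protein transcripts put the median of all transcripts between -0.47 and 0.48 in the 7 comparisons and at 0.81 in CTNS-KD minus Cys, and library totals put it between -0.34 and 1.10, and at -0.75 and -0.88 in the differences of effects. Scaled to ribosomal proteins, Cys against NT gave Eef1a1 -0.052 and Eef2 -0.22; AA against NT gave Eef1g -0.085; Cys against AA gave Eef1b2 -0.26; Cysteamine gave Eef1a1 -0.27, Eef1b2 -0.037 and Eef1g -0.10; CTNS-KD gave Eef1b2 0.14, Eef1g 0.16 and Eef2 0.23; CTNS-KD-rescue against NT2 gave Eef1g 0.067, Eef2 0.21 and 0 members called; and CTNS-KD minus Cys gave Eef1b2 0.77 and Eef2 0.45. Library totals called 2 members in Cys against AA, where 548 of 1399 transcripts were called, and 2 in CTNS-KD minus Cys, where 451 were. They gave Eef1b2 0.49 in Cys against NT, Eef1g -0.19 in AA against NT, Eef2 0.997 in Cys against AA, and Eef1b2 -0.24 and Eef2 -0.68 in Cysteamine minus Cys. Median-of-ratios scaling called 1 member in CTNS-KD-rescue against NT2, beside 441 of all transcripts, and gave Eef1b2 0.065 in CTNS-KD minus Cys. Without the 341-transcript class, 2 members were called under Cysteamine and 1 in CTNS-KD, beside 327 and 370 of the other 1058 transcripts. Eef1b2 was then at -0.28 in Cys against AA and 0.34 in CTNS-KD minus Cys. A minimum mean count of 20 put Eef1b2 at -0.21 and 0.21 in the same pair. Fits within a set called 2 members under Cysteamine, 1 in CTNS-KD and 4 in CTNS-KD-rescue against NT2. There 26.8%, 40.6% and 41.3% of all transcripts were called. These fits gave Eef2 0.056 in Cys against AA. DESeq2 called 1 member each in Cys against AA (Eef1a1), Cysteamine (Eef2), CTNS-KD and CTNS-KD minus Cys (Eef1a1), and gave Eef1b2 0.062 in the last. Over all transcripts it called 199, 163, 386 and 275 in this order. With NT2 in place of NT, 2 members were called in AA (Eef1a1 and Eef1g, the latter at -1.0), beside 459 of all transcripts. Cys then gave Eef1a1 -0.52 and Eef1g -0.42. With both untreated groups as control Eef1g was at -0.42 in AA. The causes of these changes were not tested.

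Leaving out 1 library leaves a lone library in its group, so only the sizes of the values are given here. The values that changed sign ranged, in Cys against NT, from -0.49 to 1.06 (Eef1b2); in AA against NT from -0.46 to 0.30 (Eef1a1), -0.52 to 1.03 (Eef1b2) and -0.062 to 0.31 (Eef1g); in Cys against AA from -0.14 to 0.27 (Eef1b2) and -0.16 to 0.085 (Eef2); in Cysteamine minus Cys from -0.66 to 0.88 (Eef1b2) and -0.22 to 0.35 (Eef2); and in CTNS-KD minus Cys from -1.28 to 0.26 (Eef1b2). A lone remaining library is then assumed to vary like the other groups. Per coding kilobase, NT2 levels were 5317 CPM for Eef1a1, 1693 for Eef1g, 1385 for Eef2 and 822 for Eef1b2.

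No label ties same-numbered replicates to a shared source, and with 2 pairs a group comparison the correlations of their deviations (-0.214 to 0.287) do not settle it, so they are taken to share only a number. A replicate block moved the transcripts called from 0 to 80 in Cys against NT, from 147 to 269 under Cysteamine and from 95 to 143 in Cysteamine minus Cys, and the other counts by less than 1.5 times. It called 1 member, Eef1a1 at -1.28, in CTNS-KD minus Cys, beside 307 of all transcripts, and changed no other call of a member. Counts as low as 2 per library limit Eef1b2 in the first set.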
